A study of Homo sapiens with 12 samples.

Results

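GAS6, PROS1, AXL, TYRO3 and MERTK are the 2 ligands and 3 receptors of the TAM system, and they were examined here in RNA-seq of 2 pancreatic cancer lines with and without knockdown of GOT1, the cytosolic aspartate aminotransferase. The members are the 5 genes with these symbols among the 58721 genes of the deposited tables. They were chosen by measured values, because AXL moved in opposite directions with doxycycline (dox) in the 2 lines and GAS6 fell in Pa-Tu-8902. The changes with dox are therefore a description, and the calls of the members in them are counted only beside the share over all genes. The untreated libraries also entered those changes, so AXL and GAS6 are described without a test between the untreated lines too, and PROS1, MERTK and TYRO3, whose values did not enter the choice, are tested there.

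TAM receptors are receptor tyrosine kinases named after TYRO3, AXL and MERTK. Growth arrest-specific 6 (GAS6) and protein S (encoded by PROS1) are secreted proteins whose Gla domain, modified by vitamin K-dependent carboxylation, binds phosphatidylserine, while their other end binds the receptors. GAS6 binds all of the TAM receptors, and protein S acts through TYRO3 and MERTK. In macrophages the system serves the uptake of dying cells, and AXL is known in pancreatic and other carcinomas for its association with a mesenchymal state and drug resistance.

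The cells were of the established human pancreatic cancer cell lines MIA PaCa-2 and Pa-Tu-8902. Every library came from cells stably transduced with a dox-inducible hairpin against GOT1, in a puromycin-selected vector, so that the untreated cells carried it too. The 4 groups were Pa-Tu-8902 untreated, Pa-Tu-8902 dox-treated, MIA PaCa-2 untreated and MIA PaCa-2 dox-treated, with 3 libraries each, and the treated cells had received dox for 5 days at a concentration that the labels write as 1 µM/mL, where the study's methods have µg/mL as the unit. No group with dox and a non-targeting hairpin was analysed here, so dox itself and GOT1 loss cannot be told apart.

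Total expected counts ranged from 26226537 to 43406137 per library, and the members held between 104 counts (PROS1, Pa-Tu-8902 untreated) and 12238 counts (GAS6, Pa-Tu-8902 untreated) in a library. Levels are given in TPM, a length-scaled share of the library's transcripts. GOT1 averaged 81.0 ± 2.59 TPM (SD, n = 3) in untreated and 3.83 ± 0.62 TPM in dox-treated Pa-Tu-8902. For MIA PaCa-2 the levels were 41.9 ± 2.68 TPM without dox and 1.83 ± 0.14 TPM with it. MIA PaCa-2 untreated replicate 2 lay farthest from the other libraries of its group, at a root-mean-square distance of 0.25 on the log2 scale, where the other 11 libraries lay at 0.16 to 0.23. The labels do not say whether replicates were separate cultures, so p-values measure only the spread between these libraries.

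The lines are named here by the sample titles, because the study elsewhere lists counts of the libraries titled MIA PaCa-2 under the name Pa-Tu-8902. The markers differed between the titled groups. In untreated Pa-Tu-8902 7 of 7 epithelial markers averaged at least 1 TPM, with a summed level of 8307 to 9199 TPM, and in untreated MIA PaCa-2 it was 4 of 7, with 2823 to 3093 TPM. E-cadherin (CDH1) averaged 65.3 TPM in untreated Pa-Tu-8902 and 0.01 TPM in untreated MIA PaCa-2, a line known to lack it, and vimentin (VIM) averaged 6.46 and 3932 TPM. Of the other mesenchymal markers ZEB1 averaged 0.73 and 10.5 TPM and SPARC 0.05 and 0.15 TPM. CDH2 went the other way, with 0.90 and 0.0033 TPM. Of 5 macrophage and leukocyte markers, the summed level was at most 4.19 TPM in any library, CD14 alone averaged at least 1 TPM, in MIA PaCa-2, and the pan-leukocyte marker PTPRC averaged at most 0.05 TPM. Of 5 fibroblast markers 1 averaged at least 1 TPM in each group, COL1A1 in Pa-Tu-8902 (4.50 TPM untreated) and COL1A2 in MIA PaCa-2 (226 TPM untreated), and none of the 4 endothelial markers did.

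The loci and the sequences that the results refer to are given first. AXL lies on chromosome 19 (GRCh38 41219223 to 41261766, plus strand) and GAS6 on chromosome 13 (113820549 to 113864076, minus strand). PROS1 lies on chromosome 3 (93873051 to 93980003, minus strand), TYRO3 on chromosome 15 (41557675 to 41583589, plus strand) and MERTK on chromosome 2 (111898607 to 112029561, plus strand). The positions are those of GENCODE release 44.

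GAS6 shares its start region with GAS6-DT, a divergent long non-coding RNA on the opposite strand. The start site of GAS6-DT (113864112) and that of GAS6 (113864076) leave 35 bases between them. The 100 bases upstream of GAS6 are shown because they hold the start site of GAS6-DT and end next to that of GAS6, read 5′ to 3′ on the strand of GAS6 from the RefSeq promoter table of GRCh38.p14, at chr13:113864077-113864176. Capitals mark the 35 bases between the start sites.
GAS6 upstream: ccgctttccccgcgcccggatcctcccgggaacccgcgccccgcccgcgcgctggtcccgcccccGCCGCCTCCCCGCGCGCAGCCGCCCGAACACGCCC

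The 250 bases upstream of the first AXL start site (chr19:41218973-41219222, plus strand, same table) are shown because AXL was chosen for its opposite changes in the lines. All 5 genes had windows in the table, 7 in all since AXL and TYRO3 have 2 start sites each, and 3 motifs were searched on both strands of each. Capitals mark GGGCGG, the GC box bound by SP and KLF factors.
AXL upstream: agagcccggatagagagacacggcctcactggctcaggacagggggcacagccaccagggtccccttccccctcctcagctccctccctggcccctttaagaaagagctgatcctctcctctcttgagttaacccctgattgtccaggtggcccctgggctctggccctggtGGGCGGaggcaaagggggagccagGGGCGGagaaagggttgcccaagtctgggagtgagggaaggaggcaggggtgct

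This AXL window held 2 GC boxes, GAS6 held 3, PROS1 2, MERTK 4 and the first TYRO3 start site 3. The windows of the second AXL and second TYRO3 start sites held 0. The PROS1, TYRO3 and second AXL start sites of this table are not the GENCODE gene starts given above (for PROS1, 93973896 against 93980003). A GC box stood in 42.6% of the 35116 windows of all genes. TGANTCA, a looser form of the AP-1 motif with any base in the middle, was found in the first TYRO3 window alone, against 6.57% of all windows. The match reads TGAATCA, with A where the AP-1 motif has C or G. GGAATG, that of TEAD factors, was found once, at the second AXL start site, against 11.9% of all windows. No matches overlapped, and a match is a description of the letters.

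AXL is transcribed as a long and a short coding form. AXL-201 contains a coding exon of 27 bases (9 codons, exon 10 of 20) at chr19:41239694-41239720 that AXL-202 lacks. The exon is shown because the share of the forms is described below, in capitals and between 20 bases of each neighbouring exon, from the GENCODE release 44 transcripts.
AXL-201: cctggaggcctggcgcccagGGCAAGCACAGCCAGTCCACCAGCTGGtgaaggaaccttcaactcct
AXL-202: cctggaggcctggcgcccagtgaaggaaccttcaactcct

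Before dox, the lines differed in both ligands. GAS6 was the most abundant member in untreated Pa-Tu-8902, where the 3 libraries gave 198, 207 and 190 TPM. In untreated MIA PaCa-2 they gave 5.58, 4.97 and 5.06 TPM. GAS6 was 37.0-fold higher in Pa-Tu-8902 (log2 fold change 5.21, SE 0.08). Every Pa-Tu-8902 library was above every MIA PaCa-2 library.

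PROS1, which encodes protein S, had the opposite order. Its level was 1.49, 1.19 and 1.88 TPM in untreated Pa-Tu-8902 and 5.32, 3.85 and 3.97 TPM in untreated MIA PaCa-2. The log2 fold change of Pa-Tu-8902 against MIA PaCa-2 was -1.55 (SE 0.18, edgeR adjusted p = 3.11e-06), and the groups did not overlap. GAS6 thus held 99.2% ± 0.20 (SD, n = 3) of the ligand TPM in untreated Pa-Tu-8902 and 54.5% ± 2.89 in untreated MIA PaCa-2. The shares differed by 44.7 percentage points, and no library of either line fell within the range of the other.

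All of the receptors were detected in both lines. AXL, the receptor with the highest affinity for GAS6, gave 44.1, 47.5 and 44.5 TPM in untreated Pa-Tu-8902 and 19.2, 14.8 and 19.3 TPM in untreated MIA PaCa-2. It was 2.54-fold higher in Pa-Tu-8902 (log2 fold change 1.35, SE 0.07). Without MIA PaCa-2 untreated replicate 2, which had the lowest AXL level, the log2 fold change was 1.25.

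MERTK, the receptor best known from macrophages and the retinal pigment epithelium, was the least abundant receptor in both. Its level was 6.43, 7.17 and 5.56 TPM in untreated Pa-Tu-8902 and 1.94, 1.37 and 2.18 TPM in untreated MIA PaCa-2. The difference was 3.57-fold (log2 fold change 1.84, SE 0.12, edgeR adjusted p = 1.28e-08). The groups were again separate.

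TYRO3, the receptor best known from the nervous system, differed least. It gave 24.1, 28.3 and 23.5 TPM in untreated Pa-Tu-8902 and 20.6, 17.6 and 22.0 TPM in untreated MIA PaCa-2. Its log2 fold change of 0.53 (SE 0.07, edgeR adjusted p = 1.71e-05) was under the 1.5-fold limit used for a call. With effective transcript lengths as offsets it was 0.26, and without Pa-Tu-8902 untreated replicate 1 or replicate 2 it was 0.65 and was called.

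Of the 5 members 4 were called between the untreated lines (adjusted p below 0.01 and a fold of at least 1.5), 3 of them higher in Pa-Tu-8902, and 5 of 5 had groups that did not overlap. Over all 15608 genes tested, 58.1% were called and 81.5% did not overlap, and since AXL and GAS6 were chosen with these libraries nothing is read from the members' counts.

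**Figure D1:**
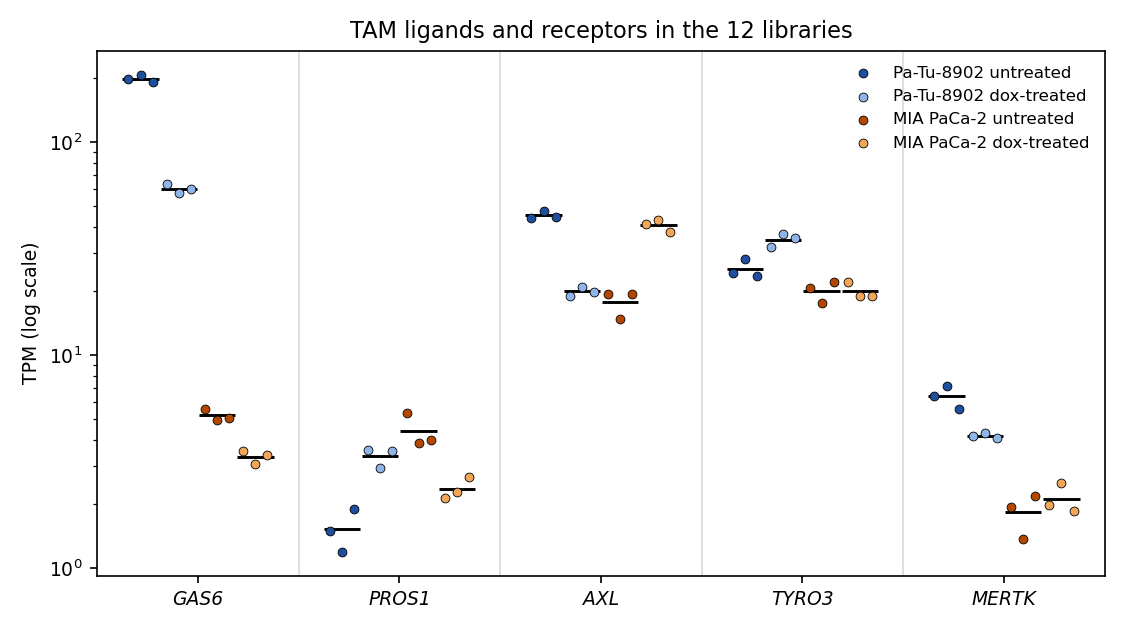
Level of the 5 members in TPM (log axis) in the 12 libraries, with 1 point per library, colours for the 4 groups and a line at each group mean. GAS6 spans 198 to 3.33 TPM over the group means, and the AXL means of untreated Pa-Tu-8902 (45.4) and dox-treated MIA PaCa-2 (40.7) lie above those of the other two groups (19.9 and 17.8).

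With dox, GAS6 fell in Pa-Tu-8902. The treated libraries gave 63.1, 57.6 and 60.2 TPM, so that the mean of 198 ± 8.41 TPM (SD, n = 3) became 60.3 ± 2.72 TPM. The log2 fold change was -1.80 (SE 0.05), a 3.49-fold decrease. In MIA PaCa-2 GAS6 was already low, and the treated libraries gave 3.52, 3.07 and 3.40 TPM. The log2 fold change there was -0.68 (SE 0.11), and the groups of either line did not overlap. Even after dox, GAS6 stood 18.1-fold higher in mean TPM in Pa-Tu-8902 than in MIA PaCa-2. As in any bulk sample, fewer cells with a transcript and less of it per cell cannot be told apart.

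The divergent transcript GAS6-DT had the same order of groups in Pa-Tu-8902. It gave 11.9, 10.9 and 10.9 TPM without dox and 2.57, 1.69 and 2.17 TPM with it, with a log2 fold change of -2.48 (SE 0.13). In MIA PaCa-2 no library held more than 5 counts of GAS6-DT, with 0.06 TPM on average untreated and 0.04 TPM treated, so no fold is given. It was below the count filter in MIA PaCa-2. The start sites of both transcripts are those at either end of the capitals in the GAS6 sequence above.

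GAS6-AS1, a non-coding RNA on the opposite strand, shares 421 exonic bases with GAS6, and the libraries were directional. The study's methods state default parameters for STAR as called by RSEM and name no strand setting, and RSEM by default counts without the strand. It averaged 0.46 TPM in untreated and 0.46 TPM in dox-treated Pa-Tu-8902, against the fall of GAS6. In MIA PaCa-2 it held at most 7 counts in a library. Without the strand, reads from the shared bases cannot be told apart.

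**Figure D2:**
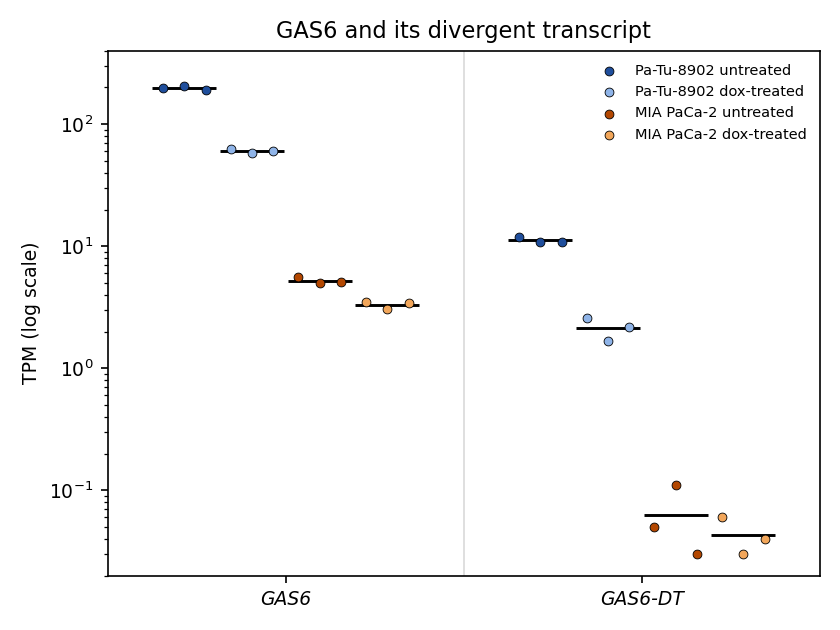
TPM (log axis) of GAS6 and GAS6-DT in the 12 libraries, with 1 point per library and a line at each group mean. In Pa-Tu-8902 both are lower with dox (GAS6 from 198 to 60.3, GAS6-DT from 11.2 to 2.14), and in MIA PaCa-2 GAS6-DT stays at or below 0.11 TPM in each library.

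PROS1 moved in opposite directions in the lines. In Pa-Tu-8902 the dox-treated libraries gave 3.56, 2.96 and 3.52 TPM, and the log2 fold change was 1.04 (SE 0.17). In MIA PaCa-2 they gave 2.13, 2.27 and 2.66 TPM, and it was -0.93 (SE 0.13). The groups were separate in both lines. After dox the PROS1 means were 3.35 and 2.35 TPM, closer to each other than the 1.52 and 4.38 TPM of the untreated lines.

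GAS6 remained most of the ligand RNA in Pa-Tu-8902, at 94.7% ± 0.33 (SD, n = 3) of the ligand TPM. In MIA PaCa-2 its share was 58.6% ± 3.25 with dox, and the library ranges of 51.2% to 56.3% without and 56.1% to 62.3% with dox overlapped. PROS2P, the pseudogene copy of PROS1, held 0 counts in each of the 12 libraries, which allows up to 3 counts per library.

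AXL, the member chosen for its opposite changes, fell in Pa-Tu-8902 from the untreated level above to 19.0, 20.9 and 19.8 TPM. The log2 fold change was -1.26 (SE 0.07), a 2.40-fold decrease. In MIA PaCa-2 it rose to 41.2, 43.2 and 37.9 TPM, with a log2 fold change of 1.20 (SE 0.07), a 2.29-fold increase. Without MIA PaCa-2 untreated replicate 2 that increase was 1.14. The difference between the 2 dox responses was -2.46 (SE 0.10) on the log2 scale.

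Some cell type markers moved in the same libraries. In Pa-Tu-8902 2 of 7 epithelial markers were called with dox, both higher, CDH1 at 130 TPM (log2 fold change 0.86) and the claudin CLDN4 at 368 TPM (0.83), while the summed level of the list went from 8307 to 9199 TPM to 7121 to 8111 TPM. The fibroblast list summed to 3.82 to 6.38 TPM without and 18.03 to 21.7 TPM with dox, with COL1A1 at 19.6 TPM (1.87). Only 2 of its 5 markers passed the count filter, and both were called higher. LUM and DCN averaged at most 0.05 TPM. VWF alone was called (2.00) of the 2 endothelial markers tested, at 0.27 and 0.65 TPM. Over all genes 9.22% were called higher and 7.12% lower in this line, and with so few markers nothing is read from these counts.

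In MIA PaCa-2 the keratin KRT19 fell with dox from 397 to 130 TPM (log2 fold change -1.66). It was the only one called of the 4 epithelial markers tested. The list summed to 2823 to 3093 TPM without and 2918 to 3155 TPM with dox. COL1A2 rose to 372 TPM (0.70), the only one called of 2 fibroblast markers tested, with list sums of 192 to 248 and 340 to 398 TPM. CD14, the only macrophage and leukocyte marker tested, fell from 3.84 to 1.64 TPM (-1.40). Over all genes 4.36% were called higher and 7.64% lower in this line, and nothing is read from the marker counts. The mesenchymal list summed to 6.10 to 11.8 TPM without and 4.13 to 4.90 TPM with dox in Pa-Tu-8902, and to 3539 to 4165 and 3728 to 4228 TPM in MIA PaCa-2. VIM had log2 fold changes of -1.16 (SE 0.32) in Pa-Tu-8902 and -0.044 (SE 0.06) in MIA PaCa-2. In Pa-Tu-8902 ZEB1 had 0.35 (SE 0.19) and CDH2 -0.38 (SE 0.22). None of the mesenchymal markers tested was called with dox in either line. The part of these shifts in the members' changes was not tested.

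The order of the lines in AXL was thus exchanged with dox. Untreated Pa-Tu-8902 averaged 45.4 ± 1.85 TPM and dox-treated MIA PaCa-2 40.7 ± 2.70 TPM, and their ranges did not overlap. Dox-treated Pa-Tu-8902 averaged 19.9 ± 1.00 TPM and untreated MIA PaCa-2 17.8 ± 2.61 TPM, and these ranges did overlap. A non-coding gene on the opposite strand shares 67 exonic bases with AXL.

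MERTK fell with dox in Pa-Tu-8902, to 4.14, 4.29 and 4.09 TPM. Its log2 fold change was -0.67 (SE 0.08), near the fold limit of 1.5. In MIA PaCa-2 the treated libraries gave 1.98, 2.51 and 1.84 TPM, within the range of the untreated ones except for 1 library, and the log2 fold change was 0.041 (SE 0.13). Its sign turned without MIA PaCa-2 untreated replicate 2 (-0.060).

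TYRO3 was higher in each dox-treated Pa-Tu-8902 library, at 32.1, 36.9 and 35.4 TPM, than in any untreated one, but the log2 fold change of 0.33 (SE 0.06) was under the limit for a call. In MIA PaCa-2 the treated libraries gave 22.1, 18.8 and 18.9 TPM, and the log2 fold change was 0.024 (SE 0.06), which turned to -0.072 with effective lengths as offsets and to -0.013 without MIA PaCa-2 untreated replicate 2. The groups overlapped. TYRO3P, a processed pseudogene copy of TYRO3, held 2 to 13 counts in a library, so reads assigned to it could change TYRO3 by little.

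In Pa-Tu-8902, 4 of 5 members were called with dox, 1 higher and 3 lower, and 5 of 5 had groups that did not overlap. Of the 14949 genes tested, 16.3% were called, 9.22% higher and 7.12% lower, and 58.1% did not overlap. In MIA PaCa-2, 3 of 5 members were called, 1 higher and 2 lower, and 3 of 5 did not overlap. Of the 14589 genes tested there, 12% were called, 4.36% higher and 7.64% lower, and 52.8% did not overlap. In the difference between the lines 4 of 5 members were called, against 10.4% of 16544 genes, and MERTK was no longer called with effective lengths as offsets. Since the members were chosen on these contrasts nothing is read from their counts.

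**Figure D3:**
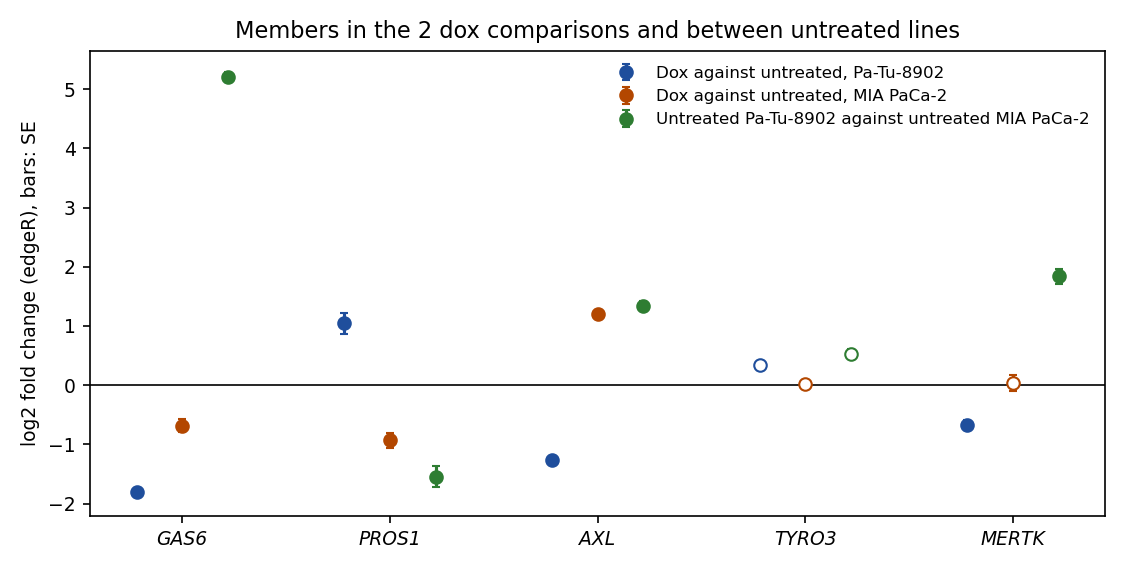
Log2 fold change of each member (edgeR, bars show the SE, filled points were called) for dox against untreated in each line and for untreated Pa-Tu-8902 against untreated MIA PaCa-2. AXL lies at -1.26 and 1.20 and PROS1 at 1.04 and -0.93 in Pa-Tu-8902 and MIA PaCa-2, while GAS6 lies below 0 in both.

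The make-up of the receptors changed with AXL. AXL held 58.9% ± 1.60 (SD, n = 3) of the summed receptor TPM in untreated and 33.8% ± 0.51 in dox-treated Pa-Tu-8902. In MIA PaCa-2 it held 44.7% ± 1.18 without dox and 64.9% ± 1.95 with dox. TYRO3 took most of the rest, with 32.8% and 59.1% in Pa-Tu-8902 and 50.7% and 31.7% in MIA PaCa-2 (untreated and dox-treated means). MERTK held between 3.03% and 8.65% in each library.

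The receptor that led the order was AXL in untreated Pa-Tu-8902, TYRO3 in dox-treated Pa-Tu-8902 and AXL in dox-treated MIA PaCa-2. With coding isoforms alone the lead of TYRO3 in dox-treated Pa-Tu-8902 nearly vanished, at a mean log2 ratio of AXL to TYRO3 of -0.11 against -0.81 for the whole genes. In untreated MIA PaCa-2 the TYRO3 and AXL ranges overlapped, as did those of GAS6 and PROS1, and in dox-treated MIA PaCa-2 those of PROS1 and MERTK. Every other pair of neighbours in the order of the 5 members was separate. The receptors summed to 77.1 ± 5.12 TPM in untreated and 58.8 ± 3.49 TPM in dox-treated Pa-Tu-8902. The MIA PaCa-2 sums were 39.6 ± 5.23 and 62.8 ± 3.67 TPM, so that the sums of the dox-treated lines lay closer together than those of the untreated lines. Between the untreated lines the AXL share differed by 14.2 percentage points.

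**Figure D4:**
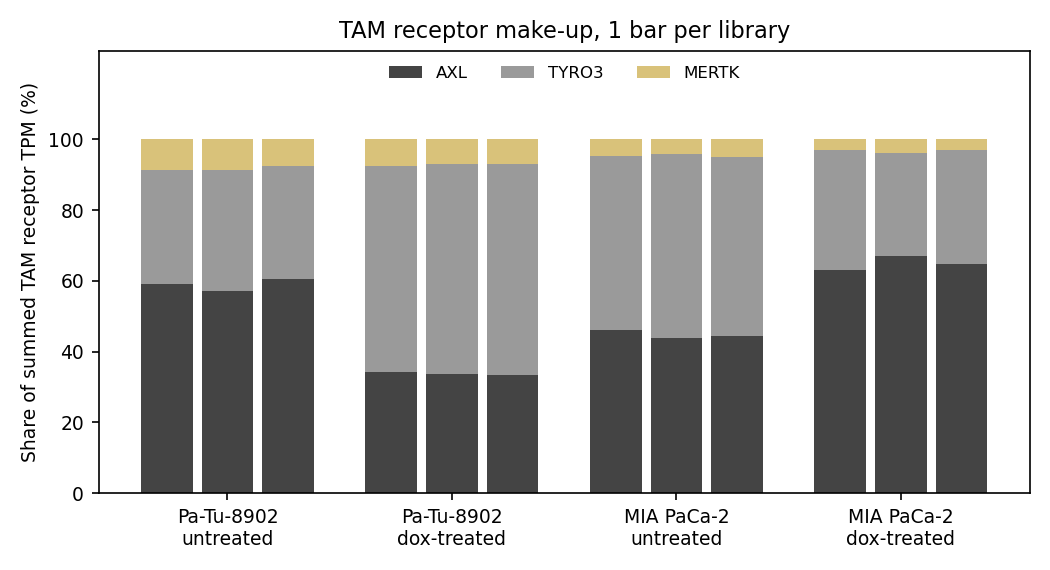
Share of AXL, TYRO3 and MERTK in the summed TPM of the TAM receptors (%), with 1 stacked bar per library in the 4 groups. AXL takes 57.3% to 60.4% in untreated Pa-Tu-8902 and 33.4% to 34.4% with dox, and 43.8% to 46.1% and 63.1% to 67.0% in MIA PaCa-2.

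Isoform values show which transcripts carried these totals. AXL-201, the form with the 27-base exon shown above, held 75.6% ± 2.30 (SD, n = 3) of the summed TPM of AXL-201 and AXL-202 in untreated and 75.3% ± 2.84 in dox-treated Pa-Tu-8902. In MIA PaCa-2 it held 68.6% ± 3.32 without and 75.7% ± 1.55 with dox, and both forms were higher with dox. AXL-201 averaged 12.1 and 30.7 TPM and AXL-202 5.63 and 9.90 TPM there.

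For GAS6, the coding GAS6-201 held 78.0% ± 5.85 in untreated and 75.1% ± 4.49 in dox-treated Pa-Tu-8902, and transcripts with retained introns held 22.0% and 24.8%. For TYRO3, retained-intron transcripts held 37.2% and 37.2% in Pa-Tu-8902 and 41.4% and 43.3% in MIA PaCa-2 (untreated and dox-treated). TYRO3-209 was the main one of these. When coding isoforms alone were compared, AXL exceeded TYRO3 in untreated MIA PaCa-2, with a mean log2 ratio of 0.59 against -0.18 for the whole genes. PROS1-202 and MERTK-203 were the leading forms of PROS1 and MERTK in untreated Pa-Tu-8902, with 84.9% and 68.4%.

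Among 58 receptor tyrosine kinases, EPHA2, an ephrin receptor, had the highest mean TPM in each of the 4 groups, between 105 and 134. In untreated Pa-Tu-8902 DDR1, MET, RYK and EGFR followed, and AXL ranked 6, within the SD of EGFR (45.6 ± 4.55 TPM). It ranked 13 with dox, where the first 5 were EPHA2, DDR1, MET, EPHB4 and EGFR. In MIA PaCa-2 AXL ranked 9 without dox and 5 with dox, after EPHA2, EPHB4, EPHA4 and ERBB2, while RYK was the fifth in untreated cells. TYRO3 ranked 11 and 8 in Pa-Tu-8902 and 8 and 9 in MIA PaCa-2, and MERTK ranked 20 to 22.

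The dox changes of genes around the members are given by list, and each count called is to be read against the shares over all genes, which were 9.22% higher and 7.12% lower in Pa-Tu-8902 and 4.36% higher and 7.64% lower in MIA PaCa-2. Of the other 55 receptor tyrosine kinases, 27 were tested in each line. With dox in Pa-Tu-8902 5 were called higher and 3 lower, with a median log2 fold change of 0.05 over the 27, against 0.0014 over all genes tested. FGFR3, a fibroblast growth factor receptor, rose from 1.86 to 5.31 TPM (log2 fold change 1.25, SE 0.10). EPHB3 rose from 9.74 to 19.9 TPM (0.80) and IGF1R from 6.46 to 11.1 TPM (0.67). PDGFRB (log2 fold change 1.73) and INSR (1.62) were called higher on counts but stayed below 1 TPM. For INSR the TPM did not show that difference, with 0.28 ± 0.21 TPM (SD, n = 3) untreated and 0.36 ± 0.17 TPM with dox. EPHA6 (-1.23), LMTK3 (-0.86) and MST1R (-0.59), the receptor of macrophage-stimulating protein, were lower.

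In MIA PaCa-2 2 were called higher and 2 lower, with a median of -0.037 against -0.0089 over all genes. EGFR, the epidermal growth factor receptor, rose from 16.3 to 32.6 TPM (log2 fold change 0.98, SE 0.09), and ROR1 rose by 0.78. RET (-1.43) and ERBB3 (-0.88) were lower. In Pa-Tu-8902 EGFR had a log2 fold change of -0.01 (SE 0.05).

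Gamma-carboxylation prepares GAS6 and protein S for binding to phosphatidylserine. All 6 genes of the vitamin K cycle and carboxylation were tested, and 0 were called with dox in either line by edgeR or by DESeq2. At an unadjusted p under 0.05, 4 of 6 passed in Pa-Tu-8902 and 5 of 6 passed in MIA PaCa-2, with changes under the fold limit and medians of 0.0074 and 0.12. Over all genes, 7619 of 14949 in Pa-Tu-8902 and 6116 of 14589 in MIA PaCa-2 had an adjusted p below 0.05. That threshold is stricter, so nothing is read from the counts of this list. GGCX, the carboxylase, averaged 36.1 TPM in untreated and 38.6 TPM in dox-treated Pa-Tu-8902, and 26.7 and 25.8 TPM in MIA PaCa-2. Between the untreated lines 3 of 6 were called. VKORC1, the vitamin K epoxide reductase, was lower in Pa-Tu-8902 (43.4 against 163 TPM, log2 fold change -1.96, SE 0.08, edgeR adjusted p = 8.81e-11), and AIFM2, which reduces vitamin K and ubiquinone, was higher (30.9 against 15.2 TPM, log2 fold change 1.02, SE 0.07, edgeR adjusted p = 2.64e-08).

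Of 12 other Gla proteins 6 were tested in Pa-Tu-8902, and 2 were called with dox, both higher. MGP, matrix Gla protein, averaged 0.14 TPM without dox, where no library held more than 3 counts, and 15.7 TPM with dox. F10, coagulation factor X, stayed below 1 TPM (0.11 and 0.67 TPM). In MIA PaCa-2 3 were tested and 1, PRRG1, was lower (log2 fold change -0.59, SE 0.09).

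TAM receptors are cut from the cell surface by ADAM proteases. The list holds the sheddases ADAM10 and ADAM17, their RHBDF regulators, TIMP3 and the gamma-secretase subunits. Of its 10 genes 10 were tested in Pa-Tu-8902, with 2 called higher and 1 lower and a median of 0.28. ADAM10 rose from 112 to 195 TPM (log2 fold change 0.75, SE 0.04), and PSEN2, a gamma-secretase subunit, was lower (-0.60, SE 0.07). TIMP3, an inhibitor of such proteases, was called at 0.01 and 0.26 TPM, where no untreated library held more than 2 counts. In MIA PaCa-2 0 of 9 were called by edgeR or by DESeq2 and 6 had an unadjusted edgeR p under 0.05, with a median of 0.34. Nothing is read from those 6, since 6116 of all 14589 genes tested there had even an adjusted p below 0.05. ADAM17 had log2 fold changes of 0.35 (SE 0.04) in Pa-Tu-8902 and 0.45 (SE 0.07) in MIA PaCa-2, both under the fold limit.

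Of 31 genes of signalling downstream of the receptors, 29 were tested in Pa-Tu-8902, with 1 called higher and 2 lower, and 27 in MIA PaCa-2, also with 1 higher and 2 lower. Both medians were 0.08. The adaptor NCK2 rose in Pa-Tu-8902 (log2 fold change 0.60), and SOCS3, a suppressor of cytokine signalling, fell (-0.61). STAT3 rose in MIA PaCa-2 from 52.7 to 99.9 TPM (0.83, SE 0.06), and PIK3R1, a regulatory subunit of PI3-kinase, fell from 12.4 to 6.11 TPM (-1.08, SE 0.09). TNS2, a tensin, fell in both lines, by 0.80 and 0.65 on the log2 scale.

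Phosphatidylserine is the lipid that bridges the ligands to dying cells. Of 22 genes of its exposure and recognition, 12 were tested in Pa-Tu-8902, with 4 called, all of them higher, and a median of 0.56, against 9.22% called higher and a median of 0.0014 over all genes. LRP1, an uptake receptor, rose from 1.303 to 4.13 TPM (log2 fold change 1.39, SE 0.12), and the integrin subunit ITGAV from 20.4 to 43.3 TPM (1.00, SE 0.07). MFGE8, a secreted protein that binds phosphatidylserine and integrins, rose from 17.2 to 34.7 TPM (0.92, SE 0.06). The fourth was XKR8, a scramblase (0.86), which is named after its value was seen. In MIA PaCa-2 1 of 13, ITGAV, was called (0.63, SE 0.06), and the median was 0.0038.

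Of 21 transcription factor genes linked to AXL in general knowledge, 19 were tested in each line. In Pa-Tu-8902 3 were called higher and 4 lower, with a median of 0.08, and in MIA PaCa-2 4 were called, all higher, with a median of 0.11. FOSL1, an AP-1 subunit, fell in Pa-Tu-8902 from 572 to 264 TPM (log2 fold change -1.19, SE 0.06), as did JUN (-0.78) and SNAI2 (-0.79), the transcription factor SLUG. The remaining gene called lower was WWTR1, from 64.3 to 38.1 TPM (-0.72). TEAD2 (0.84), HIF1A (0.62) and EPAS1 (0.59) were higher. The other TEAD genes, TEAD1 (0.08), TEAD3 (0.33) and TEAD4 (-0.39), were not called. In MIA PaCa-2 SNAI2 rose from 0.81 to 1.72 TPM (1.02, SE 0.21), FOS rose by 0.78, TEAD1 by 0.74 and TEAD3 by 0.62.

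**Figure D5:**
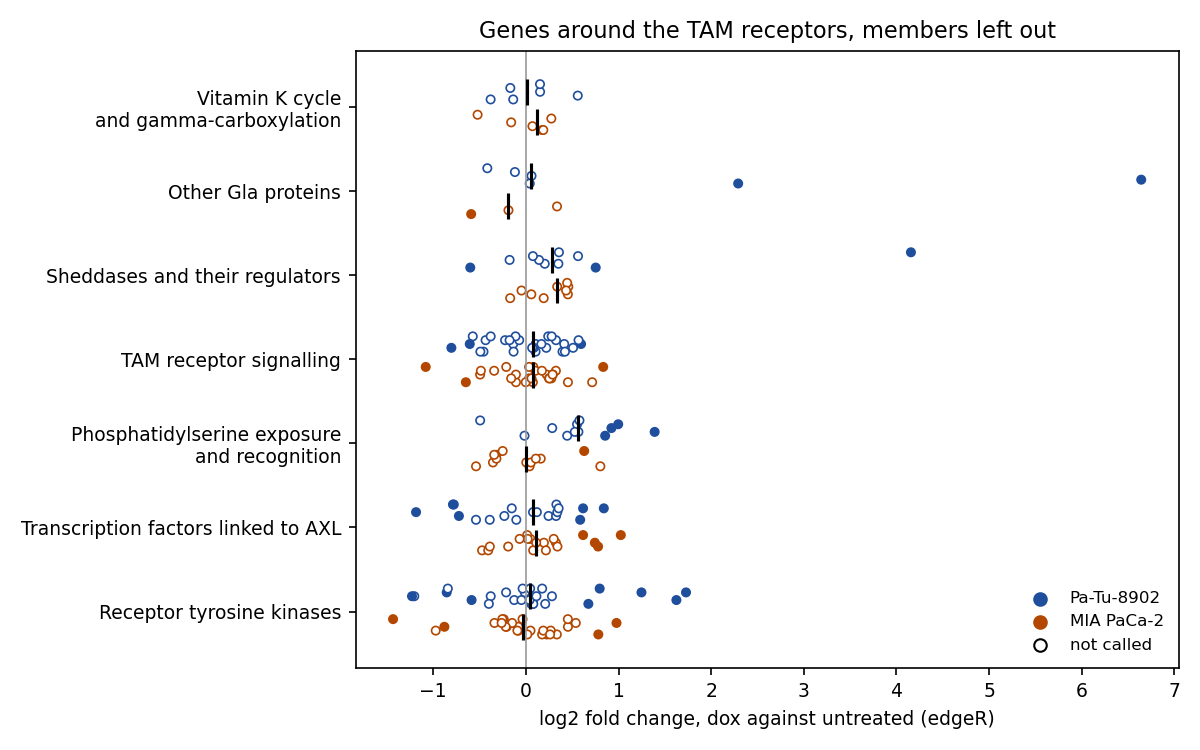
Log2 fold change with dox (edgeR) of the tested genes of 7 lists around the TAM receptors, members left out, with 1 point per gene and line, filled where called, and a black bar at each median. The phosphatidylserine list of Pa-Tu-8902 has a median of 0.56, and the other medians lie between -0.19 and 0.34.

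The genes most like each member over the 12 libraries were found by the root-mean-square difference of centred log2 normalised counts (CPM), among 11660 genes. For GAS6, which varied by 2.42 around its mean, these were MCC (0.29), DSG2 (0.37) and KCTD12 (0.39). In MIA PaCa-2 MCC averaged 0.06 and 0.02 TPM and KCTD12 0.03 and 0.02 TPM (untreated and dox-treated). These levels were far below the 5.20 and 3.33 TPM of GAS6. DSG2, a desmosomal cadherin, averaged 29.2 and 16.9 TPM in Pa-Tu-8902 and 1.08 and 0.62 TPM in MIA PaCa-2 (untreated and dox-treated). For PROS1, which varied by 0.59, they were LIPA (0.19), AL365205.1 (0.23) and HNMT (0.26). LIPA, lysosomal acid lipase, averaged 55.0 and 101 TPM in Pa-Tu-8902 and 145 and 69.6 TPM in MIA PaCa-2, an exchange of order like that of PROS1.

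For AXL the nearest were ARID3B (0.17), RPS6KL1 (0.29) and CARMIL2 (0.30), while AXL itself varied by 0.62 around its mean. ARID3B, a DNA-binding protein, averaged 10.4 and 5.08 TPM in Pa-Tu-8902 and 4.02 and 7.99 TPM in MIA PaCa-2. For TYRO3 they were NFE2L1, TKFC and MMP15, at 0.065 to 0.070, and for MERTK ITPR3, RTEL1 and INPP5F, at 0.090 to 0.10. TYRO3 itself varied by 0.37 and MERTK by 0.78. Such a likeness describes 4 group levels and their spread over 12 libraries.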

How the data were processed

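The authors trimmed paired-end reads of directional poly(A) libraries (Trimmomatic 0.39), aligned them to GRCh38 with GENCODE release 29 using STAR 2.5.2a and quantified them with RSEM 1.3.1, per the study's methods and the submitters' processing notes. The deposited expected counts are unnormalized and unfiltered estimates per gene, kept separate for each library, and 5.34% are not whole numbers. The deposited TPM and FPKM values, for genes and isoforms, are the authors' RSEM estimates per transcript length and library, and effective lengths came with them.

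Here, counts were rounded, a gene entered a fit when 3 or more of its libraries reached 10 counts, and edgeR 4.0.16 (R 4.3.3, TMM, glmQLFit and glmQLFTest) was fitted in each line, over the untreated libraries, and over all 12 for the difference between the lines. A call needed an adjusted p (Benjamini-Hochberg) under 0.01 and a 1.5-fold change. SEs are the size of the log2 fold change over the root of edgeR's F statistic. Levels between genes were compared in TPM. Non-overlap was judged on TMM-normalized counts. Exact permutation tests of the AXL and GAS6 shares (scipy 1.17.1) are not printed, because both genes were chosen with these libraries. A count of 0 allows 3 counts, which covers counting error only. The scripts were tested on simulated data.

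Named are the 5 members, up to 3 called genes per list, line and direction with the largest changes, the first 5 receptor tyrosine kinases of each group, the 3 genes most like each member, and their pseudogenes and neighbours. The AIFM2, VKORC1, ADAM17, GGCX, EPHB3, IGF1R, WWTR1, TEAD3 and TEAD4 values were added after they were seen. The members, lists and rules were chosen with earlier results of these data known. The lists come from general knowledge. Alternatives were DESeq2 1.42.0 with and without shrunken fold changes, its size factors, other filters, effective lengths as offsets, 1 fit of 12 libraries, a replicate block, an adjusted p below 0.05 with no fold limit, other units and each library left out.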

Additional observations from a re-analysis of the deposited data

Results flagged for a closer look

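For 4 members the dox responses of the lines differed past the thresholds for a call in the fit of all 12 libraries, which is what flagged them. This contrast is made of the comparisons on which the members were chosen, so the values are a description. The difference, Pa-Tu-8902 minus MIA PaCa-2 on the log2 scale, was -2.46 (SE 0.10) for AXL, from -1.26 and 1.20. It was 1.98 (SE 0.23) for PROS1, from 1.04 and -0.93. GAS6 differed by -1.12 (SE 0.10), from falls in both lines. MERTK differed by -0.71 (SE 0.15), and with effective lengths as offsets it was -0.82 and no longer called. Groups of 3 libraries are too small for the test of outlying values used here for 4 or more.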

How the results depend on the processing

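GAS6, PROS1 and AXL had the same direction and side of the thresholds in each comparison under every alternative run, which is no support for changes on which AXL and GAS6 were chosen. The number of genes called moved to 7619 (Pa-Tu-8902), 6116 (MIA PaCa-2) and 4432 for the difference between the lines with an adjusted p below 0.05 and no fold limit. TYRO3 then passed at 0.33 in Pa-Tu-8902, 0.53 between the untreated lines and 0.31 in the difference, and between the untreated lines it lay at 0.45 to 0.65 with single libraries left out. In MIA PaCa-2 TYRO3 turned to -0.072 with effective lengths as offsets and lay at -0.013 to 0.038 with single libraries left out, and MERTK lay at -0.060 to 0.089. The MERTK difference between the lines was -0.82 with effective lengths as offsets and no longer called. The cause of these shifts was not tested.

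With coding isoforms alone, the mean log2 ratio of AXL to TYRO3 was 1.52 and -0.11 in untreated and dox-treated Pa-Tu-8902 and 0.59 and 1.87 in MIA PaCa-2, and that of GAS6 to PROS1 was 3.81 in dox-treated Pa-Tu-8902 and 0.019 in untreated MIA PaCa-2, by construction without the retained-intron transcripts. From expected counts, the untreated lines differed by 10.7 percentage points in the AXL share and 53.9 in the GAS6 share.

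The deviations of libraries with the same replicate number correlated at -0.12 to 0.10. The labels do not say whether the numbers pair libraries, and with 3 libraries per group this correlation cannot decide it. With a replicate block 2380, 1735, 8891 and 1611 genes were called in the comparisons of Pa-Tu-8902, of MIA PaCa-2, of the untreated lines and of the responses, and no call of a member changed. Of 6 libraries compared in Pa-Tu-8902 3 correlated best with their own number, and 2 of 6 in MIA PaCa-2.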
